A study of Mus musculus with 4 samples.

Results

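The T23 and T1525 lines were set directly against each other, gene by gene, on Illumina bead arrays. Both are cell lines from prostate tumors of TRAMP mice of the C57Bl/6 strain, from animals 30 weeks old, and each was put on 1 array. TRAMP mice carry a transgene in which the promoter of probasin, an androgen-dependent secretory gene of prostate epithelium, drives SV40 tumor antigens. Wild-type C57Bl/6 prostate at 18 weeks of age gave 2 further arrays, called normal 1 and normal 2, which served as a yardstick of spread. Separate mice are not named for them in the labels, and they are tissue rather than cultured cells. Each line is a single line on a single array, so a difference between the lines has no replicate check and no test was made. Neither the culture conditions nor the passage of the lines are given in the labels used here.

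Of 24613 probes, 20984 had 1 gene symbol, and the probe with the highest mean over the 4 arrays was kept for each of 15967 genes. A background threshold of 6.63 on the log2 intensity scale was estimated from the values themselves, and 10075 genes lay above it in at least 1 line. The other 5892 were at background in both lines and were not compared. Between 52.5% and 52.8% of probes lay above the threshold on each array. A value at or below the threshold was set to it before a difference was taken, and such a fold is given as "at least". Genes were counted as apart when the lines differed at least 4-fold, a log2 difference of 2.

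Epithelial cells are held together by E-cadherin junctions, tight junctions and desmosomes, and carry a skeleton of keratins. Mesenchymal cells such as fibroblasts lack these, move singly and lay down collagen and other matrix. The passage from the first state to the second, the epithelial-mesenchymal transition, is driven by transcription factors of the Snai, Zeb and Twist families, and in prostate cancer it is known from tumors that have lost their glandular form. By their keratin, junction and matrix genes the lines stood on either side of this division on the arrays. The mesenchymal markers Vim (vimentin) and Cdh2 (N-cadherin) were less than 4-fold apart.

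T1525 carried keratin and junction genes of epithelium and T23 genes of mesenchymal cells. At least 4-fold apart were 833 of 10075 genes (8.27%), of which 453 were higher in T23 (4.5%) and 380 higher in T1525 (3.77%). The normal arrays, read by the same rule, were as far apart for 122 of 9815 genes (1.24%), 20 of them higher in normal 1 (0.204%) and 102 in normal 2 (1.04%). At 2-fold the shares were 22.2% of genes for the lines (10.8% higher in T23, 11.3% in T1525) and 5.88% for the normal arrays (1.12% higher in normal 1, 4.76% in normal 2). At 8-fold they were 4.23% (2.39% and 1.84%) and 0.387% (0.0611% and 0.326%). The typical gene differed by 0.42 between the lines and by 0.23 between the normal arrays (median size of the log2 difference). The 833 genes were chosen for a large difference between the lines, so by that choice most would exceed the difference between the normal arrays. For 823 this was so, which is no check of the calls. Of the 833, 23 were themselves at least 4-fold apart between the normal arrays. In 414 of the 833 both lines lay above background, in 223 T1525 was at background, and in 196 T23 was at background. A gene above background only through the line where it was high had to differ. Counts within a gene list are given over its members with a probe, whereas these shares are over genes above background in a line. Among the genes nearest to the threshold were Cd59a at 2.01 and Mbnl2 at 1.99 on the T23 side, and Vrk1 at -1.99 just short of it on the T1525 side (log2 difference, T23 minus T1525 throughout).

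**Figure D1:**
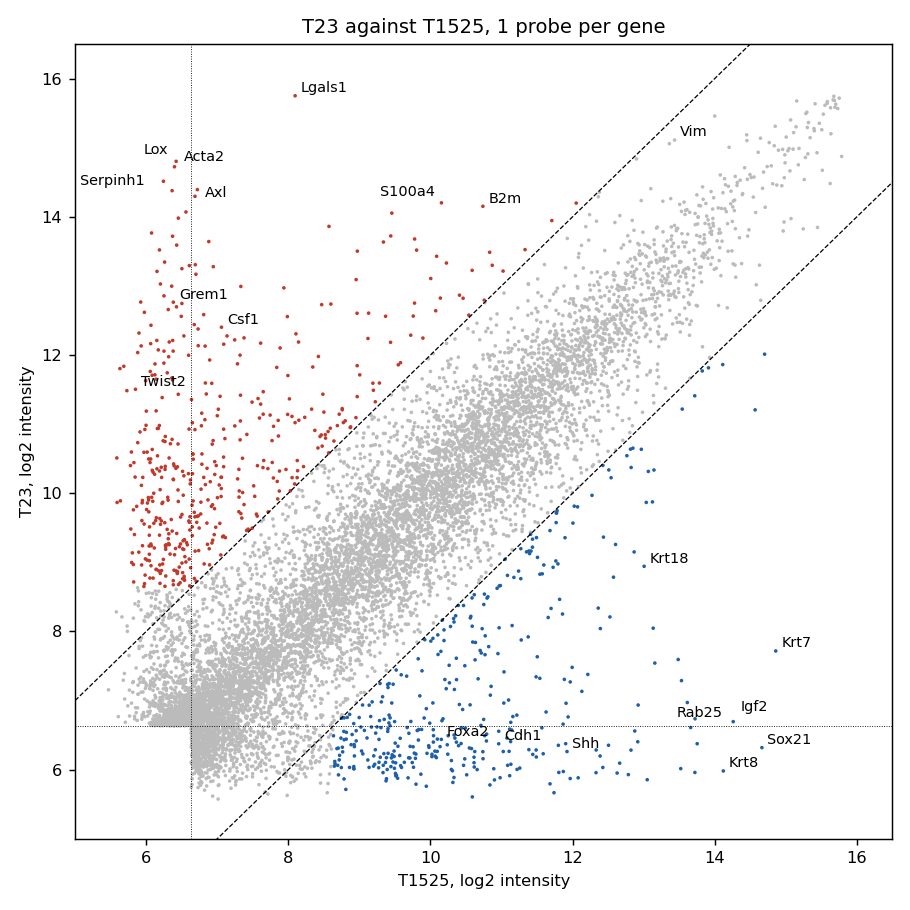
Log2 intensity of T23 (vertical) against T1525 (horizontal) for 10075 genes above background in at least 1 line, 1 point per gene. Dashed lines mark a 4-fold difference and dotted lines the background threshold of 6.63, with 453 genes higher in T23 in red and 380 higher in T1525 in blue, many of them along the background of the other line.

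**Figure D2:**
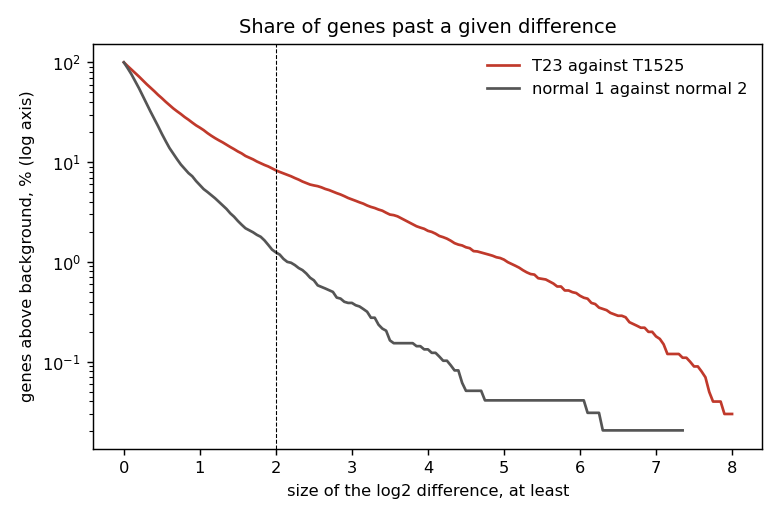
Share of genes above background (percent, log axis) whose log2 difference is at least the size on the horizontal axis, for the lines in red and the normal pair in grey. At the dashed line, a 4-fold difference, the share is 8.27% for the lines and 1.24% for the normal pair.

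Several genes had a second probe on the array that the comparison did not use. Among the 833 genes, 172 had at least 1 other probe above background in a line, 237 probes in all. Of these, 229 lay on the same side as the chosen probe, 78 of them at least 4-fold, and 0 were at least 4-fold on the opposite side. The median difference of the other probes was 1.39 in the direction of the chosen probe. The 8 probes at or past 0 belonged to Bdh1, Dst, Ildr1, Lama3, Ltbp1 and Phyhipl. They were named for that after their values were seen.

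The keratins of T23 were mostly at background. Krt8, a type II keratin of luminal epithelium, gave 5.98 in T23 against 14.12 in T1525, with the normal arrays at 13.55 and 14.06. T1525 was thus near the tissue level while T23 lay at background, at least 179-fold lower. A second Krt8 probe was at background on every array. Krt18, the partner with which Krt8 forms filaments, was 8.94 in T23 against 13.01 in T1525, with the normal arrays at 13.82 and 13.40, 16.7-fold lower in T23 but above its background. Krt7 and Krt19, keratins of simple and ductal epithelium, were 141-fold and at least 72.9-fold lower in T23. Krt7 also differed within normal prostate, at 11.93 in normal 1 and 14.21 in normal 2. Krt14, a basal cell keratin, read 13.72 in T1525 and 5.96 in T23, at least 136-fold apart, with 11.86 and 13.08 in the normal arrays. Of 15 keratins with a probe, 12 were above background in T1525 and 4 in T23; 8 were at least 4-fold higher in T1525 and 0 higher in T23, with a median of -2.85 over the 13 above background in a line, against -0.02 over all genes. Krt6a and Krt13, keratins of stratified epithelium that were at least 4-fold higher in T1525, also differed widely within normal prostate, with Krt6a at 6.11 in normal 1 and 11.38 in normal 2.

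Junction genes followed the keratins. Cdh1, the E-cadherin of adherens junctions, read 6.37 in T23 and 10.96 in T1525, with 10.67 and 10.74 in the normal arrays. T23 was at background and T1525 0.25 above the mean of the tissue arrays, a difference of at least 20.1-fold. Cldn4 and Cldn7, claudins of tight junctions, were 36.9-fold and at least 15.5-fold lower in T23. Tjp3, a tight junction scaffold, was at least 17.2-fold lower. Rab25, a small GTPase of epithelial recycling endosomes, read 6.61 in T23 and 13.66 in T1525, against 13.27 and 13.16 in the normal arrays. Ap1m2, the epithelial subunit of a clathrin adaptor, was at least 22.6-fold lower in T23. St14, the membrane protease matriptase, and its inhibitors Spint1 and Spint2 were lower in T23 by at least 15.8-fold, 8.63-fold and 7.31-fold. The desmosome genes Pkp3, Dsg2 and Jup were 8.22-fold, 5.95-fold and 5.68-fold lower. In all, 18 of 31 junction and polarity genes with a probe were at least 4-fold higher in T1525 and 0 were higher in T23, with 26 above background in T1525 and 9 in T23. Epcam read 7.03 in T1525 and lay at background on the other arrays, including both arrays of prostate, so its probe did not separate epithelium here.

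The regulators of epithelial identity showed the same order, with exceptions. Esrp1, which directs epithelial splicing, read 5.96 in T23 against 11.81 in T1525, with the normal arrays at 12.05 and 11.47. Grhl2, a grainyhead factor that maintains junction genes, was 10.66 in T1525 and 10.63 and 10.54 in the normal arrays, and at background in T23, at least 16.2-fold lower. The difference was at least 22.5-fold for Elf3, an epithelial ETS factor, and at least 15.9-fold for Foxa1, the pioneer factor of luminal cells. Of 20 regulators with a probe 8 were at least 4-fold higher in T1525. Gata6 and Gata2 went the other way, 18.4-fold and 10.8-fold higher in T23. Trp63, the basal cell factor p63, was at background in T1525, 8.24 in T23 and 11.29 and 11.59 in the normal arrays. Basal keratin Krt14 and Trp63 therefore did not lie on the same side of the comparison.

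The secretory programme of prostate was largely missing from both lines. Of 20 androgen receptor and luminal secretory genes with a probe, 20 were above background in normal prostate, 8 in T1525 and 6 in T23. Over the 10 above background in a line the median was -0.72, with 1, Wfdc2, at least 4-fold higher in T1525 and 0 in T23. Wfdc2, a secreted protein of epithelium, read 8.65 in T1525 and was at background in T23, against 12.39 and 15.19 in the normal arrays. Hoxb13, a homeobox factor of prostate, read 7.18 in T23 and was at background in T1525, against 13.45 and 12.28 in the normal arrays. Both lines were likewise far below the tissue for the luminal factors Elf5 and Gata3. Elf5 was 6.94 in T1525 and at background in T23, with 12.45 and 12.08 in normal prostate, and Gata3 was 7.32 in T23 and at background in T1525, with 12.49 and 12.31.

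A short sequence, CACCTG or its reverse complement CAGGTG, is the E-box that Zeb and Snai repressors are known to bind. The 3 promoters shown are of T1525-side genes described above and were picked because they hold it, whereas 5 of the 14 examined among the 20 largest differences on that side do and 0 of 14 on the T23 side. Those of Cdh1 and Esrp1 were not examined. The sequences are from RefSeq (build GRCm38.p6), 250 bases before to 50 after the gene's start, 5′ to 3′ on the gene's strand, with the matches in capitals.
Rab25 promoter, chr3:88548230-88548529, strand -: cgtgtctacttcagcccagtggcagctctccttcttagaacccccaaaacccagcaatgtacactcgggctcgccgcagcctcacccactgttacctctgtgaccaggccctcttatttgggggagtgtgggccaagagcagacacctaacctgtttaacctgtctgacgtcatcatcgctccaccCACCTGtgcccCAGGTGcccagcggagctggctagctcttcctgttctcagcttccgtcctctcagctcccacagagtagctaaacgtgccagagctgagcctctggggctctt
Cldn4 promoter, chr5:134946885-134947184, strand -: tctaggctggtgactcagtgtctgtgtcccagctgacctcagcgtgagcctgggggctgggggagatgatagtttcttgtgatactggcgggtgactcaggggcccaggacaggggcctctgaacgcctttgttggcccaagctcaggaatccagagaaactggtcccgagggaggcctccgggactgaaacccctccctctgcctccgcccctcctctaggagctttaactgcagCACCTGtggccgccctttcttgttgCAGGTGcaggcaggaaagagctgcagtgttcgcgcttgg
Krt8 promoter, chr15:102004293-102004592, strand -: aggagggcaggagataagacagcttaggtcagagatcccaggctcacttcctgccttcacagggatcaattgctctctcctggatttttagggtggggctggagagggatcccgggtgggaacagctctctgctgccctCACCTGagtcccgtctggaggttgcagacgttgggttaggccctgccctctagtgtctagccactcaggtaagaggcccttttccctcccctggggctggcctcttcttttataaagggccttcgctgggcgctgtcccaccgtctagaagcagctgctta
Among all promoters in the RefSeq table, 1 per gene, 20% of 27025 held this sequence on either strand, and 18.2% of 8170 genes above background in a line. The share was 36.8% of 291 promoters of genes at least 4-fold higher in T1525 and 13.1% of 329 of those higher in T23. In promoters with 50% to 60% G and C the shares were 36.9% and 8.49%, against 18.2% of all, and in those with 60% to 70% they were 38.1% and 22.2%, against 19.8%. Below 50% the T1525 side was nearer to the rest, at 20% of 35 promoters and 9.46% of 74 on the T23 side, against 15% of all. From 70% up the shares were 44.4% and 10%, against 17.7%. For CAGCTG, another E-box, the shares were 16.2% on the T1525 side, 13.4% on the T23 side and 14.7% of all genes above background, and for CACGTG 6.53%, 5.78% and 9.74%. Neither order of these letters separated the sides as CACCTG did. These shares are descriptions of letters in a window, and binding was not measured.

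Of the Zeb and Snai genes, Zeb1, Zeb2 and Snai2 were at least 4-fold higher in T23. Snai1 differed by 0.44, with T1525 at background, and Snai3 by -1.21. Zeb1 read 10.73 in T23 and 5.88 in T1525, with 10.24 and 10.61 in the normal arrays. T23 thus stood at the level of whole prostate, which contains stroma, and T1525 at background, at least 17.1-fold lower. Zeb2, its paralog, was at least 5.92-fold higher in T23. Snai2 was 10.11 in T23 and 7.51 in T1525, 6.04-fold apart. Twist1 and Twist2, helix-loop-helix factors of mesoderm, were 13.9-fold and at least 29.2-fold higher in T23, and Twist2, at 11.50, lay above both normal arrays (9.02 and 9.05). Prrx1, a homeobox factor of limb and stromal mesenchyme, was 10.35 in T23, 6.78 and 7.39 in the normal arrays and at background in T1525. Of 22 such factors with a probe, 12 were at least 4-fold higher in T23 and 1 in T1525. That 1 was Tbx2, a T-box repressor, which read 10.25 in T1525 and was at background in T23.

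**Figure D3:**
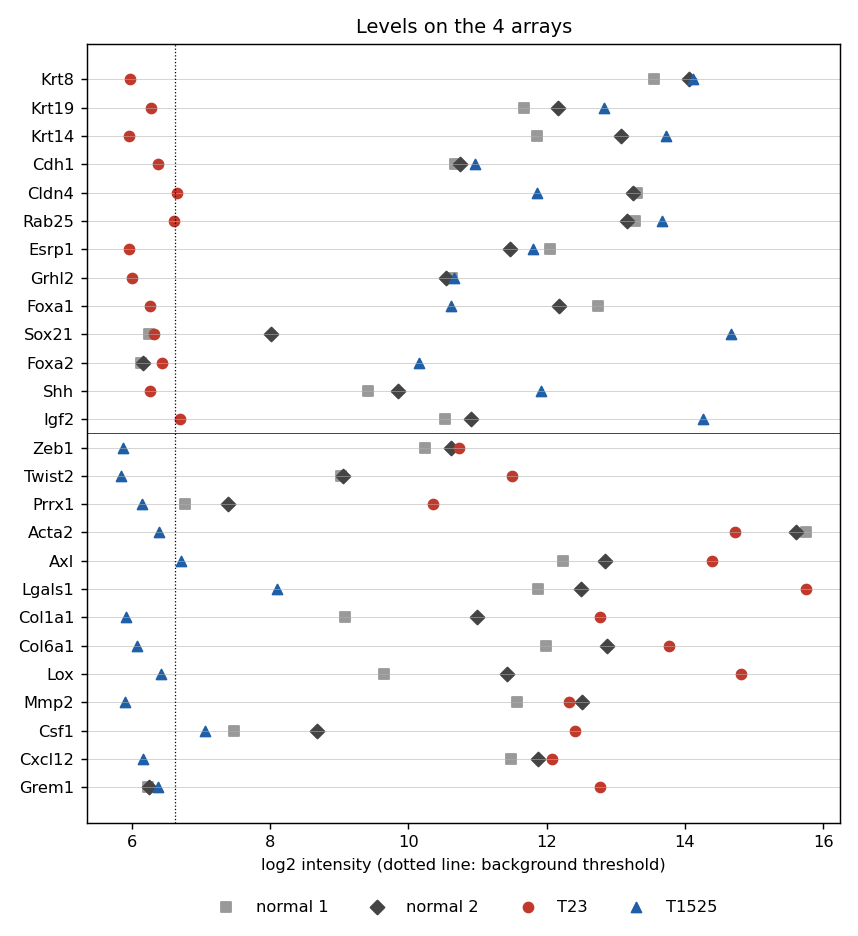
Log2 intensity (horizontal) of 26 genes on the 4 arrays, 1 mark per array, with the background threshold dotted. For the 13 genes above the line, from Krt8 to Igf2, T23 lies below T1525, and for the 13 below it, from Zeb1 to Grem1, T1525 lies between 5.85 (Twist2) and 8.10 (Lgals1), below T23.

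Contractile and membrane genes of mesenchyme were higher in T23. Acta2, the smooth muscle actin that marks myofibroblasts, read 14.72 in T23 and 6.40 in T1525, at least 272-fold apart, with 15.74 and 15.61 in the normal arrays. Both of its other probes were likewise high in T23 and at background in T1525. Tpm2, a muscle tropomyosin, was at least 84.1-fold higher in T23, Fhl1 54.8-fold and Cnn2 at least 49.9-fold. Lgals1, the lectin galectin-1, read 15.75 in T23, 8.10 in T1525 and 11.87 and 12.49 in normal prostate. Axl, a receptor tyrosine kinase of mesenchymal cells, was 14.39 in T23 and 6.72, just above background, in T1525. Cavin2 and Cav1, which shape caveolae, were at least 136-fold and 39.1-fold higher. S100a4, a calcium-binding protein of motile cells, was 14.20 in T23 and 10.15 in T1525, with both normal arrays below the lines (9.29 and 9.58). Vimentin, the mesenchymal filament, did not reach the 4-fold mark. Vim was 15.11 in T23 and 13.43 in T1525, 3.19-fold apart, and Cdh2 (N-cadherin) read 7.65 and 7.73. Of 30 mesenchymal surface and cytoskeleton genes with a probe 18 were at least 4-fold higher in T23. Cd44, a hyaluronan receptor, was the 1 member higher in T1525, at 11.10 against 7.01, and its other 4 probes also read higher in T1525.

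The markers of cell types bear on what the lines contained, and for them fewer cells of a type and less RNA per cell cannot be told apart. Of 8 luminal markers, 8 were above background in T1525 and 2 in T23, and their summed intensity was 41229 in T1525, 998 in T23 and 49000 and 49507 in the normal arrays. Krt8, Krt19, Cdh1, Epcam, Cldn3 and Cldn7 were at background in T23, which goes against an epithelial reading of the label "prostate tumor cell line". Of 9 stromal markers, 8 were above background in T23 and 4 in T1525, where Col1a1, Col1a2, Col3a1, Pdgfrb and Cdh11 were at background. The 9 together summed to 65370 in T23 and 12765 in T1525, against 8339 and 20288 in the normal arrays. By this sum T1525 lay between the normal arrays and T23 above both, but Vim alone made up most of the sum in T1525. Vim read 13.43 in T1525, against 12.38 and 13.59 in the normal arrays. The sum therefore does not place the other stromal markers of T1525 at the tissue level. Summed leukocyte markers were 427 in T23 and 655 in T1525, against 19109 and 50695 in the normal arrays. Of 4 smooth muscle markers, Myh11, Des and Cnn1 were at background in both lines, and Actg2 was above it in T23, at least 2.77-fold over T1525. Whether the cells carried the SV40 transgene was not tested.

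Collagens and their processing enzymes were higher in T23. Col1a1, a chain of fibrillar collagen I, read 12.77 in T23 against 5.92 in T1525, with the normal arrays at 9.08 and 10.99. T23 exceeded both tissues and T1525 was at background, at least 70.1-fold lower. Col6a1, of the pericellular collagen VI, was at least 140-fold higher in T23, Col5a1 at least 95.3-fold and Col4a2, of basement membranes, at least 101-fold. Serpinh1, the collagen chaperone HSP47, was 14.51 in T23 and at background in T1525. Lox, which cross-links collagen and elastin, was 14.80 in T23, at background in T1525 and 9.64 and 11.43 in the normal arrays. The lines were at least 288-fold apart. Its relative Loxl1 was at least 98.0-fold higher. Of 20 collagens with a probe, 10 were at least 4-fold higher in T23 and 0 in T1525. The normal arrays differed from each other in this list as well, with normal 2 higher by a median of 1.03. For 339 of the 453 genes higher in T23 normal 2 was the higher normal array. The median of normal 1 minus normal 2 was -0.344 over those 453 genes and 0.025 over the 380 higher in T1525. Over the 10066 genes above background in a line and placed on the autosomes or X it was 0.035.

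Among matrix glycoproteins and proteoglycans, 20 of 43 with a probe were at least 4-fold higher in T23 and 0 in T1525. Dcn and Bgn, small leucine-rich proteoglycans, were higher in T23 by at least 105-fold and 74.6-fold. Fbln2, a fibulin of elastic fibres, was 80.7-fold higher, Sparc at least 42.9-fold and tenascin-C (Tnc) at least 19.7-fold. Of 24 integrins and laminins with a probe, 3 were at least 4-fold higher in T23 and 4 in T1525, and 12 above background in a line were not apart. Itga11, the collagen-binding integrin chain of fibroblasts, was at least 45.2-fold higher in T23, Itgb5 5.29-fold and Lama2, a laminin chain of muscle and nerve, at least 5.17-fold. Lama5 was 6.88-fold higher in T1525. Itgb4 and the laminin-332 chains Lamb3 and Lama3, which anchor epithelium through hemidesmosomes, were higher in T1525 by at least 22.3-fold, 63.6-fold and 12.2-fold, although another Lama3 probe differed by 0.15 the other way. Itga6, which pairs with Itgb4 in hemidesmosomes, differed by -0.23.

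Proteases and inhibitors were higher in T23 wherever they reached the 4-fold mark, in 13 of 39 with a probe. This list also varied within normal prostate. Of 31 members above background there, 6 were at least 4-fold apart between the normal arrays, against 1.24% of all such genes. Mmp2, the gelatinase A of stromal cells, read 12.32 in T23 and was at background in T1525, with 11.56 and 12.52 in normal prostate. Mmp9, the gelatinase B, was 8.84 in T23, 7.01 in T1525 and 9.04 and 8.98 in the normal arrays, 3.54-fold apart and short of the mark. Serpinf1, the anti-angiogenic factor PEDF, was at least 214-fold higher in T23. Timp1 and Timp3, which inhibit metalloproteinases, were 23.1-fold and 23.7-fold higher, though Timp1 also differed by 3.24 between the normal arrays.

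Secreted signals differed in both directions. Chemokines and cytokines leaned to T23, with 24 of 39 with a probe above background there and 13 in T1525. At least 4-fold higher were 8 in T23 and 0 in T1525. Csf1, the macrophage growth factor, read 12.40 in T23 and 7.06 in T1525, with 7.48 and 8.68 in the normal arrays. Cxcl12, a stromal chemokine that binds CXCR4, was at least 43.4-fold higher, Cxcl1, which draws neutrophils, 29.3-fold and Ccl2, which draws monocytes, at least 8.73-fold. Cxcl1 also differed by 3.03 between the normal arrays, and 5 genes of the list were at least 4-fold apart there. Kitl, the stem cell factor on which mast cells depend, went the other way, at 8.02 in T1525 and at background on the other arrays. Its receptor Kit was read at 9.79 and 9.58 in normal prostate and lay at background in T23 and T1525.

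Igf2 and Shh marked T1525. Igf2, an imprinted insulin-like growth factor of fetal tissue, read 14.26 in T1525, 6.69 in T23 and 10.53 and 10.91 in the normal arrays. T1525 was above and T23 below both tissues, and the lines were 189-fold apart. Igf1 also read higher in T1525, 11.66 against 8.20. Shh, a Hedgehog ligand of prostate budding, was 11.92 in T1525, at background in T23 and 9.42 and 9.86 in the normal arrays. In the Wnt pathway, Notum, Nkd2 and Axin2, feedback inhibitors that canonical signalling induces, were higher in T1525 by at least 19.2-fold, at least 12.1-fold and, for Axin2, a log2 difference of -3.10, as was Rnf43, an inhibitor of Wnt receptors, by at least 77.8-fold. Wnt5a, Wnt10a and the secreted protein Dkk3 were higher in T23 by 8.87-fold, 13.7-fold and at least 118-fold. In all, 5 of 50 Wnt pathway genes with a probe were at least 4-fold higher in T23 and 4 in T1525.

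Receptors and TGF-beta family members leaned to T23. Pdgfra, the receptor of platelet-derived growth factor on stromal cells, read 12.97 in T23 and 7.94 in T1525. Egfr was 13.2-fold higher in T23, Efna5 at least 47.0-fold and Igfbp6 27.1-fold. Of 66 receptor tyrosine kinase and ligand genes with a probe, 13 were at least 4-fold higher in T23 and 6 in T1525. Grem1, a secreted BMP antagonist, was 12.76 in T23 and at background on the other 3 arrays, a log2 difference of at least 6.13. Fstl1 was 50.6-fold higher and Ltbp2, a latent TGF-beta binding protein, read 10.63 in T23 with T1525 at background. Ltbp1 was 10.2-fold higher by its chosen probe, but 3 other probes differed by at most 0.11 the other way. In all 7 of 39 TGF-beta and BMP genes were at least 4-fold higher in T23 and 0 in T1525.

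Ccn1, Ccn2 and Ankrd1 are known targets of TEAD factors with the coactivator YAP. Ankrd1 read 12.06 in T23, 6.38 in T1525 and 7.0 and 7.75 in the normal arrays, at least 42.9-fold apart. Ccn1 and Ccn2, matricellular proteins of the CCN family, were 24.1-fold and 13.1-fold higher in T23. All 3 were chosen after their values were seen. GGAATG (reverse complement CATTCC) is a sequence that TEAD factors are known to bind. The promoters of Ankrd1 and Ccn1 are shown because they hold it, in capitals, and that of Ccn2 was not examined.
Ankrd1 promoter, chr19:36119795-36120094, strand -: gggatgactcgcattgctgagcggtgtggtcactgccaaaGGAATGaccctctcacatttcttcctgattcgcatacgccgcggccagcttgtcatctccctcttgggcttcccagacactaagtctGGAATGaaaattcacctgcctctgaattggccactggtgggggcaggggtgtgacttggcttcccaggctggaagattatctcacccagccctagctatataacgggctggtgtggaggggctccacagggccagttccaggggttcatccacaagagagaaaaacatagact
Ccn1 promoter, chr3:145649936-145650235, strand -: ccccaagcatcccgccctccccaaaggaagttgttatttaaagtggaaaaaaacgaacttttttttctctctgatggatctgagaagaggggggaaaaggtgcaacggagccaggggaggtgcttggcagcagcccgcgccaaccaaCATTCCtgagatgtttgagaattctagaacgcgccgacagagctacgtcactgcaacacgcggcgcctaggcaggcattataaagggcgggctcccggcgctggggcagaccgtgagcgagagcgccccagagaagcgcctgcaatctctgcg
GGAATG was found in 18.8% of promoters on the T23 side, 15.5% on the T1525 side and 12.1% of all genes above background in a line, so the sides differed less than for CACCTG.

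**Figure D4:**
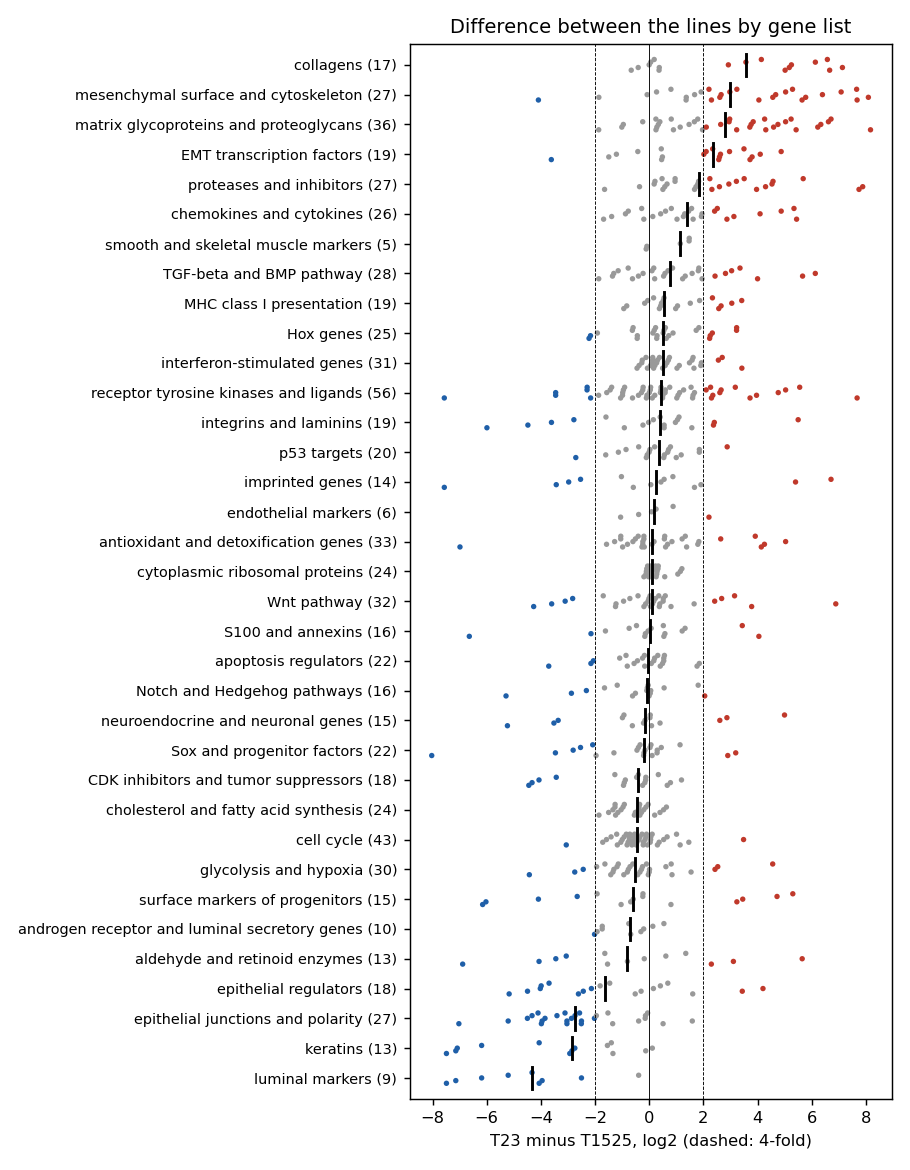
Log2 difference (T23 minus T1525, horizontal) of every gene above background in a line, by gene list, with the number of such genes in brackets and the median as a black bar. Points past the dashed lines are at least 4-fold apart, and the lists run from the luminal markers (median -4.33) to the collagens (median 3.57), with ribosomal proteins at 0.09.

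Of 36 Sox and progenitor factors with a probe, 5 were at least 4-fold higher in T1525 and 2 in T23, with a median of -0.20 over 22 above background in a line, 15 of which were not apart. Sox21, a SoxB2 factor, read 14.66 in T1525, 6.32 in T23, 6.25 in normal 1 and 8.01 in normal 2. T23 was at background, at least 261-fold lower. Sox2, a factor of stem and neuroendocrine cells, was 10.41 in T1525, 6.94 in T23 and 6.48 and 6.65 in the normal arrays. Foxa2, which is found in neuroendocrine prostate cancer, was 10.15 in T1525 and at background on the other arrays. Nrcam, a neuronal adhesion molecule, was at least 37.6-fold higher in T1525 and Hes6, a neurogenic helix-loop-helix gene, 10.3-fold. The neuroendocrine list itself was not on 1 side, with 3 of 27 genes at least 4-fold higher in each line. Gap43, Eno2 and Ncam1 were the members higher in T23, by at least 31.9-fold, 7.30-fold and at least 6.09-fold. Of 6 neuroendocrine cell markers with a probe, 4 were above background in T1525 and 1 in T23. Their summed intensity was 1720 in T1525 and 991 in T23, against 1156 and 1289 in the normal arrays. Among these markers Chga and Syp differed by only -0.21 and -0.16, and Chgb was at background in both lines. Sox9 was 9.14-fold higher in T23, which stood at the tissue level. Among 33 Hox genes with a probe, 5 were higher in T23, led by Hoxd8 and Hoxc6 (at least 9.36-fold and 9.34-fold), and 2, Hoxa5 and Hoxa9, were higher in T1525 by 4.67-fold and 4.49-fold.

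Of 15967 genes, few appeared in a single line and nowhere else. At background on the other 3 arrays and at least 4-fold above the threshold were 11 genes in T23 and 11 in T1525. In T23 they were Grem1, Pbp2, Dlx2, Zfhx4, Crct1, Foxc2, Adam12, Lif, Hgf, Fosl1 and Gdnf. Dlx2 and Foxc2 are transcription factors of mesenchyme, and Lif, Hgf and Gdnf are secreted factors. These roles were picked from the list and do not describe all 11 genes. In T1525 they were Nrcam, Otop1, Notum, Erich3, Erfe, Foxa2, Rem2, Tafa2, Cntn3, Tph2 and Nebl. Tph2 makes serotonin in neurons and Otop1 is a proton channel, read at 11.74 in T1525.

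Cell cycle genes leaned slightly to T1525, with few past the 4-fold mark. Of 48 with a probe, 43 were above background in a line. Of these, 1 was at least 4-fold higher in T23 and 1 in T1525, where 4.5% and 3.77% of all such genes were. The list median was -0.46, against -0.02 over all genes. Ccnd2, a D-type cyclin, was 11.2-fold higher in T23 and E2f2 8.36-fold higher in T1525. Of 20 CDK inhibitors and tumor suppressors with a probe, 4 were at least 4-fold higher in T1525, Cdh1 among them, and 0 in T23. Cdkn1a, Cdkn1b, Cdkn2c and Cdkn2d, further inhibitors of the cycle, were not apart, with differences of 0.78, -0.25, 1.19 and -0.88. Cdkn2a, which encodes the p16 and Arf tumor suppressors, read 11.13 in T1525, 6.68 in T23 and 6.56 and 6.86 in the normal arrays, so T1525 stood alone. Its neighbour Cdkn2b was 10.71 in T1525 and 6.64 in T23, and T23 was just above background for both genes. Mtap, next to Cdkn2a in the genome, was higher in T23 (9.97 in T1525, a log2 difference of 1.97). Cdkn1c was at least 10.8-fold higher in T1525. Rb1 was 8.38 in T23 and 9.65 in T1525, and Myc was 8.47 and 8.52. Among apoptosis regulators, Bik, Bcl2 and Bok were higher in T1525 by at least 13.1-fold, 4.45-fold and 4.17-fold, and 0 of 27 with a probe were higher in T23.

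Some genes of antigen presentation were higher in T23. B2m, the light chain of all MHC class I molecules, read 14.15 in T23, 10.74 in T1525 and 15.62 and 15.55 in the normal arrays, 10.7-fold apart. Psmb8, an immunoproteasome subunit, was at least 6.28-fold higher in T23, Tap2, a chain of the peptide transporter, 5.04-fold and H2-M3 8.26-fold. H2-K1, a classical heavy chain, was not, at 9.31 in T23 and 10.14 in T1525. In all 5 of 24 class I genes were at least 4-fold higher in T23, 0 in T1525. Ifit2 and Ifit3, interferon-induced antiviral genes, were 10.7-fold and at least 6.47-fold higher, and 3 of 39 interferon-stimulated genes with a probe reached the mark, or 3 of the 31 above background in a line, against 4.5% of all such genes higher in T23 and 8.27% apart. The other 28 were not apart.

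Among metabolic lists, 3 of 34 glycolysis and hypoxia genes with a probe were at least 4-fold higher in T23 and 3 in T1525 (median -0.52), 5 and 1 of 36 antioxidant genes (median 0.10), and 3 and 4 of 20 aldehyde and retinoid enzymes (median -0.81). Above background in a line were 30, 33 and 13 of them. Of all such genes 4.5% were higher in T23 and 3.77% in T1525. Aldh3a1 and Gpx2, an aldehyde dehydrogenase and a glutathione peroxidase of epithelia, were higher in T1525 by at least 118-fold and 127-fold, and Aldh1a1 16.8-fold. Gpx2 and Aldh3a1 also differed within normal prostate, by 2.51 and 1.86. Nqo1, Mgst2, Gpx7 and Gpx8 were higher in T23 by 15.1-fold, 32.8-fold, at least 19.1-fold and 17.6-fold. Ldhb, a lactate dehydrogenase chain, was at background in T1525 and at least 23.5-fold higher in T23, while the glycolytic aldolase Aldoc was 21.5-fold higher in T1525. In cholesterol and fatty acid synthesis 0 of 26 genes with a probe were at least 4-fold apart, with a median of -0.45 over the 24 above background in a line, and 0 of 24 ribosomal protein genes, whose median difference was 0.09. Of all genes above background in a line 8.27% were apart, so 0 of 24 lies near that share in either list.

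Set against normal prostate, genes were often near the tissue level in one line and below it in the other. For 177 of the 380, T23 was at least 4-fold below the mean of the normal arrays and T1525 within 4-fold of it, whereas for 107 T1525 was above normal with T23 within range. Of the 453 higher in T23, 185 were within range in T23 and at least 4-fold below normal in T1525, and 112 were above normal in T23 alone. In 30 and 10 genes, respectively, the lines lay at least 4-fold to either side of normal. Both lines lay off normal on the same side in 9 and 18 genes, and neither was 4-fold away in 117 and 68. With a 2-fold mark the order turned on both sides, to 352 with T23 alone off normal against 318 with T1525 alone among genes higher in T23, and 391 with T1525 alone against 353 with T23 alone among those higher in T1525. At 4-fold, the number of the 453 with T1525 alone off normal was 213 without normal 1 and 154 without normal 2.

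The position of genes on chromosomes, looked at after the values were seen, gave a difference of another kind. Over 7049 genes above background on all 4 arrays, the median difference was -0.03, and for 18 of 20 chromosomes it lay between -0.19 and 0.17. On chromosome 12 it was -0.96 over 230 genes, of which 199 (86.5%) were lower in T23, and on chromosome 13 -0.46 over 237 genes (79.7% lower). Against the normal arrays, chromosome 12 genes were 1.00 higher in T1525 and -0.01 in T23, where all genes gave 0.21 and 0.20. Chromosome 13 genes gave 0.50 and -0.03. The normal arrays differed by 0.12 on chromosome 12, like the other chromosomes. Split into 13 groups of neighbours, the chromosome gave a median below 0 in every group, from -0.33 to -1.60, over genes above background in a line. DNA copy number was not measured. Chromosome 12 holds Foxa1, Nrcam, Gpx2, Egln3, Jag2 and Ckb, named above or in the lists, all higher in T1525, and also Twist1 and Ltbp2, higher in T23. By the 4-fold rule 34 of its 323 genes above background in a line were higher in T1525 (10.5%), against 3.78% of genes on all chromosomes.

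**Figure D5:**
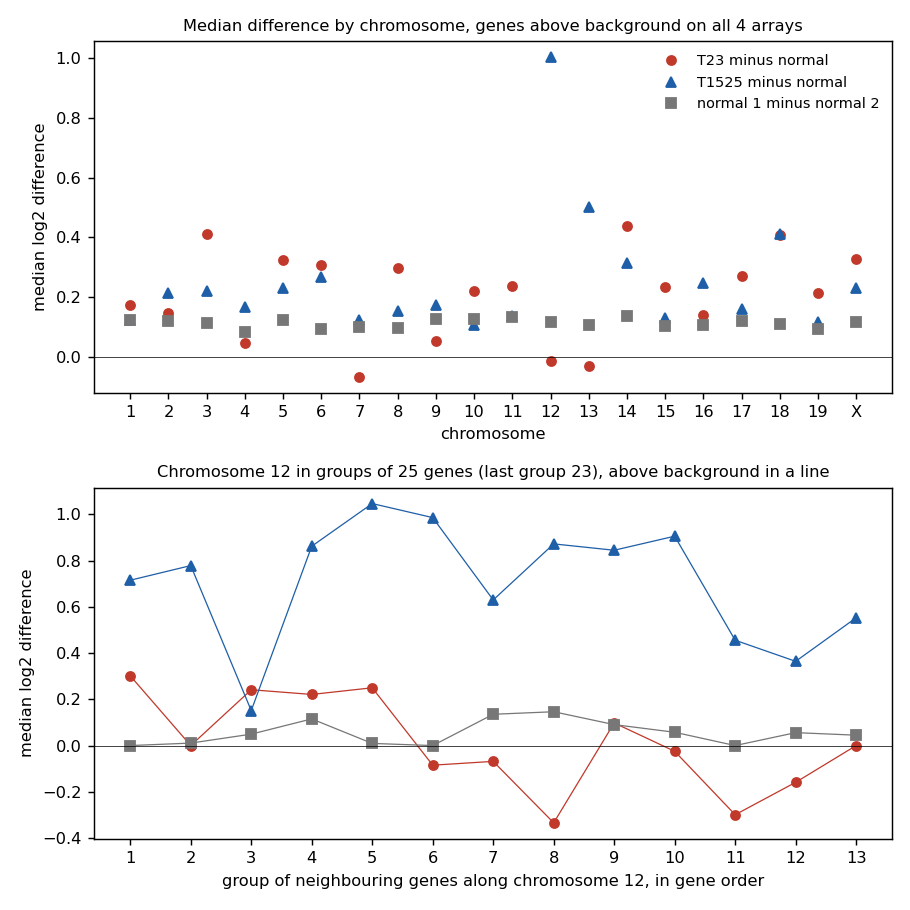
Top, median log2 difference of each line from the mean of the normal arrays and of normal 1 from normal 2 (vertical), by chromosome, over genes above background on all 4 arrays, with T1525 at 1.00 on chromosome 12. Bottom, the same along chromosome 12 in groups of neighbouring genes above background in a line, where T1525 (blue triangles) lies above T23 (red circles) in all groups but the third.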

How the data were processed

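RNA of 4 samples was hybridised to Illumina bead arrays, 1 array each. The deposited values are normalized intensities on a linear scale. The submitters' processing notes name BeadStudio, without a version or the background and normalization steps. The deposited intensity columns hold nearly the same sorted values (median gap 0.183%), as after quantile normalization. Another table, before normalization, carries 8 per-sample columns headed by slide positions; no label ties these to samples, and they were not used here. Slides were not used as a block.

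Log2 intensities were taken. The background threshold was the mode of all values (6.09) plus the distance that leaves 0.01 of a Gaussian above it, its SD taken from values left of the mode (0.234), 6.63 in all, an intensity of 99.3. A single symbol was given for 20984 probes, several for 1 and none for 3628, and 20968 were found in RefSeq by Entrez ID. The number of arrays limits precision. Fits were not made, since each line has 1 array. The 38 lists hold 1104 genes, 975 with a probe, and some genes stand in more than 1. Members, lists and threshold were chosen with earlier results of these data known. Named genes are the 20 largest differences in each direction, up to 5 per list at least 4-fold apart, and 22 checks, of which 2 had no probe, 154 in all. Other genes named were list members or chosen after their values were seen. Python 3.11.15 and matplotlib 3.10.9 were used, and limma 3.58.1 in R 4.3.3 for cyclic loess.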

Additional observations from a re-analysis of the deposited data

Results flagged for a closer look

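Lines on opposite sides of normal prostate were picked out for a closer look: 20 genes had 1 line at least 4-fold above both normal arrays and the other at least 4-fold below both. With 1 array per line the difference was not tested. They include 15 higher in T23 and 5 higher in T1525, and 14 of the 20 were named by rule. In matrix and secretion, the log2 differences were at least 8.17 for Lox, 7.74 for Serpinf1 and 6.89 for Dkk3, with T1525 at background, and 6.33 for Fbln2. Among surface, cytoskeletal and signalling proteins they were 7.66 for Lgals1, 6.62 for Gask1b and 6.47 for Vasn, and at least 7.43 for Epb41l3, 7.08 for Cavin2 and 4.99 for Gap43. The transcription factor Twist2 differed by at least 4.87. Higher in T1525 were Igf2 (-7.56) and, with T23 at background so that the sizes are lower bounds, Rnf43 (-6.28) and Shh (-5.29), all of them secreted or membrane signalling proteins.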

How the results depend on the processing

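With a 2-fold mark 1093 genes were higher in T23, 1139 in T1525 and 577 apart in the normal pair, and with an 8-fold mark 241, 185 and 38. Genes higher in T23 with T23 alone off normal numbered 352 at 2-fold and 41 at 8-fold, and with T1525 alone 318 and 101. Those higher in T1525 with T1525 alone off normal numbered 391 and 30, and with T23 alone 353 and 91. The order of the place counts at 2-fold was the opposite of that at 4-fold and 8-fold on both sides. Under the other 9 settings (no floor, looser and stricter background tails, median scaling, cyclic loess, other probe choices, and without either normal array) these counts stayed within 1.5 times. Of the 453 and 380 genes, between 395 and 453 and between 322 and 380 kept their side past the mark, and 0 were past it on the other side. Without normal 1 or normal 2, the 4 counts of place ranged from 97 to 139, 154 to 213, 100 to 112 and 167 to 176. Of 1386 values of named genes under these settings, 1310 moved by less than the SD of the normal pair (0.395), 75 moved by more, and Ltbp1 reversed, from 3.35 to -0.040 with the median over its probes. The cause is in its probes, 3 of which differed by at most 0.11. The chromosome 12 median, looked at after seeing the data, was -0.83 over the 323 genes above background in a line and lay between -0.87 and -0.66 under these settings; the -0.96 over genes above background on all 4 arrays was not recomputed. Signal over background limits every fold against a line at background. No paired analysis was possible because each line has 1 array and no test was made.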

Other observations

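Of 3 genes of the Y chromosome, Eif2s3y and Kdm5d were lower in both lines than in prostate of male mice. Eif2s3y read 6.22 in T23, 7.72 in T1525 and 10.36 and 10.44 in the normal arrays, and Kdm5d 6.06, 6.53, 8.19 and 7.97, while Uty was at background on all 4. T23 was at background for all 3, and T1525 above it for Eif2s3y. These genes were chosen after their values were seen.

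Psmc1, an ATPase subunit of the proteasome and likewise chosen after its value was seen, was at background in T23 (6.61) and 11.57 in T1525, with 10.85 and 10.47 in normal prostate. It has 1 probe here.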
